A study of Mus musculus with 12 samples.

Results

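Prdm16, Mecom, Ehmt1, Tle3, Zfp423, Zfp516, Zbtb7b, Nfia, Irf4 and Klf11 encode transcription factors and cofactors known to set or oppose the brown adipocyte fate. They were chosen by gene symbol, not by a measured value, and are 10 of the 24197 genes in the count table. RNA was sequenced from mouse brown adipose tissue (BAT), whose adipocytes burn fuel to make heat, at an age of 8 to 10 weeks. All animals were homozygous for floxed Ebf2. Controls were Adipoq-Cre-; Ebf2 fl/fl and mutants Adipoq-Cre+; Ebf2 fl/fl, so that Cre was driven by the promoter of Adipoq, a gene of mature adipocytes, and cells of other types in the tissue were not its target. Each genotype was sampled at room temperature (RT) and after 1 week in the cold at 4 degrees, with 3 libraries in each of the 4 groups. Whether the libraries of a group come from separate animals is not said in the labels, and the p-values therefore cover only the spread between libraries, which may be technical.

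Brown adipocytes take on their identity when general adipogenic factors such as PPARgamma are joined by regulators that open thermogenic genes. PRDM16 is a zinc finger protein that binds PPARgamma and C/EBP factors and turns on brown-selective genes while holding down muscle and white-fat genes. MECOM (EVI1) is its closest relative, and EHMT1 is the histone methyltransferase of its complex. TLE3, a Groucho-family corepressor, competes with PRDM16 for PPARgamma and favours the white programme, and ZFP423, a factor of preadipocytes, restrains thermogenic genes by acting on EBF2, the product of the gene targeted here. ZFP516, ZBTB7B, NFIA, IRF4 and KLF11 are each known to support thermogenic genes. EBF2 itself recruits PPARgamma to brown-selective genes.

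Of the 10 genes, 9 had at least 1 entry in the RefSeq promoter table (GRCm38.p6, 250 bases before to 50 bases after the start of transcription, 12 start sites). Zfp516 had none. The sequences of 4 start sites are shown. Those of Tle3, Prdm16 and Klf11 belong to the 3 members called lower with cold in the mean over genotypes below, as 11% of all genes were. That contrast was chosen after the data were seen. The other is 1 of Mecom, which held the whole palindrome bound by EBF factors. Capitals mark matches on either strand to CCCNNGGG, the core of the EBF site (where it is flanked by T before and A after, the capitals cover these too), or to TGACG, the core of the cAMP response element, a sequence bound by factors that act downstream of adrenergic signals. A stretch without capitals holds neither, and a match is not evidence of binding.
Tle3, chr9:61372116-61372415, + strand: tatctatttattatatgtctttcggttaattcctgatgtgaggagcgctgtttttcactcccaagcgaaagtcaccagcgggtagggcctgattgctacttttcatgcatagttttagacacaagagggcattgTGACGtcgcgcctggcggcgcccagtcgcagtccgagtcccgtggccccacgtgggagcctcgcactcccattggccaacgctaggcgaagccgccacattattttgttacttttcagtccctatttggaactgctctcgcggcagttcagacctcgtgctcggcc
Prdm16, chr4:154636824-154637123, - strand: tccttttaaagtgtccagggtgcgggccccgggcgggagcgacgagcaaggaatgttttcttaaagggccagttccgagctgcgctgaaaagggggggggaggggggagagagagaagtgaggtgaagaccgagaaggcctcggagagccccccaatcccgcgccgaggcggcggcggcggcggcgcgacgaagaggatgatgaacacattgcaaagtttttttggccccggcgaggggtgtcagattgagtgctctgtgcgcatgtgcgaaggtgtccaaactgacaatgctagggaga
Klf11, chr12:24651121-24651420, + strand: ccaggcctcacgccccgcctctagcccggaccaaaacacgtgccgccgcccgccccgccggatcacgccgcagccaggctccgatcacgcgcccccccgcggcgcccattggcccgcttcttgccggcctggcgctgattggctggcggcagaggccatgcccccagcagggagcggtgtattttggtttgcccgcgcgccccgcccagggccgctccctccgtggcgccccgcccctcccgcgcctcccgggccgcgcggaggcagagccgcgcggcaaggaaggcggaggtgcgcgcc
Mecom, chr3:30013155-30013454, - strand: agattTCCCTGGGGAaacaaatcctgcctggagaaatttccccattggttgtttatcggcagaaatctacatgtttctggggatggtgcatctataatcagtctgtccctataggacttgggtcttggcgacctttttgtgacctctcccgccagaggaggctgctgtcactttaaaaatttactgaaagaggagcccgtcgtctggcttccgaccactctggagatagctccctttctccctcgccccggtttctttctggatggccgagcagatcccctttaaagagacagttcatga

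CCCNNGGG was found at 2 of the 12 start sites, 1 of Mecom and 1 of Zfp423, and in 13.7% of all 32851 promoters in the table. The longer palindrome, with the flanking T and A, stood at the Mecom start site shown and in 0.904% of all promoters. TGACG was found at Tle3 only among the 12, against 20.8% of all promoters, and the full element TGACGTCA at none of the 12, against 1.79%.

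Library totals ran from 25835650 to 37927038 counts, and levels are given as CPM (counts scaled to library size, here TMM-adjusted). The targeted gene was not lower in mutants at RT. Ebf2 stood at 47.4, 64.1 and 32.0 CPM in the 3 RT control libraries and at 65.2, 45.7 and 38.3 CPM in RT mutants. In the cold it was 52.3, 42.2 and 41.6 CPM in controls and 28.7, 21.6 and 27.0 CPM in mutants (log2 fold change -0.82 ± 0.25 SE, adjusted p = 0.153). Genotype directions below therefore rest on the labels, and the whole-gene count may include exons left after recombination and cells without Cre. Between temperatures Ebf2 was called lower with cold in mutants (-0.95 ± 0.25, edgeR adjusted p = 0.0226), as 7.42% of all genes were. In controls it was at -0.08 ± 0.25 (adjusted p = 0.886). The difference between these 2 values, tested as an interaction, was not called (-0.87 ± 0.35, adjusted p = 0.336). The 10 skeletal muscle fibre markers summed to between 4.95 and 19180 CPM over the 12 libraries, which differ in how much muscle RNA they hold. The third mutant cold library stood apart with 219 CPM of 4 epithelial markers, against 21.3 CPM at most in the other 11, and its Ucp1 was 5867 CPM against 10970 and 11680 CPM in the other mutant cold libraries. Ucp1, the uncoupling protein of brown fat, lay between 718 and 5617 CPM in the 6 RT libraries, so that this library was still above all of them. In whole tissue, fewer cells of a type and less RNA per cell cannot be told apart.

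Compared per length (CPM per kilobase of merged exons, GENCODE M21), Zbtb7b was the most abundant of the 10, with a median of 61.7 over the 12 libraries and a range of 49.4 to 75.8. Nfia (median 15.4) and Tle3 (11.99) came next and crossed, Nfia being higher in 8 of 12 libraries. Ehmt1 followed at 6.68, below Tle3 in all 12 but above Irf4 in only 9 of 12, so that its place above Irf4 is not fixed. Irf4 (5.26), Prdm16 (4.33), Klf11 (3.84), Zfp423 (3.35) and Zfp516 (2.81) formed a run in which each gene was above the next in between 4 and 10 of 12 libraries, so that their order is not fixed beyond the spread. Mecom was lowest at 1.56, below Zfp516 in all 12. Of the 2 related genes, Mecom ranged from 1.04 to 1.79 and Prdm16 from 3.09 to 9.70 CPM per kilobase.

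**Figure D1:**
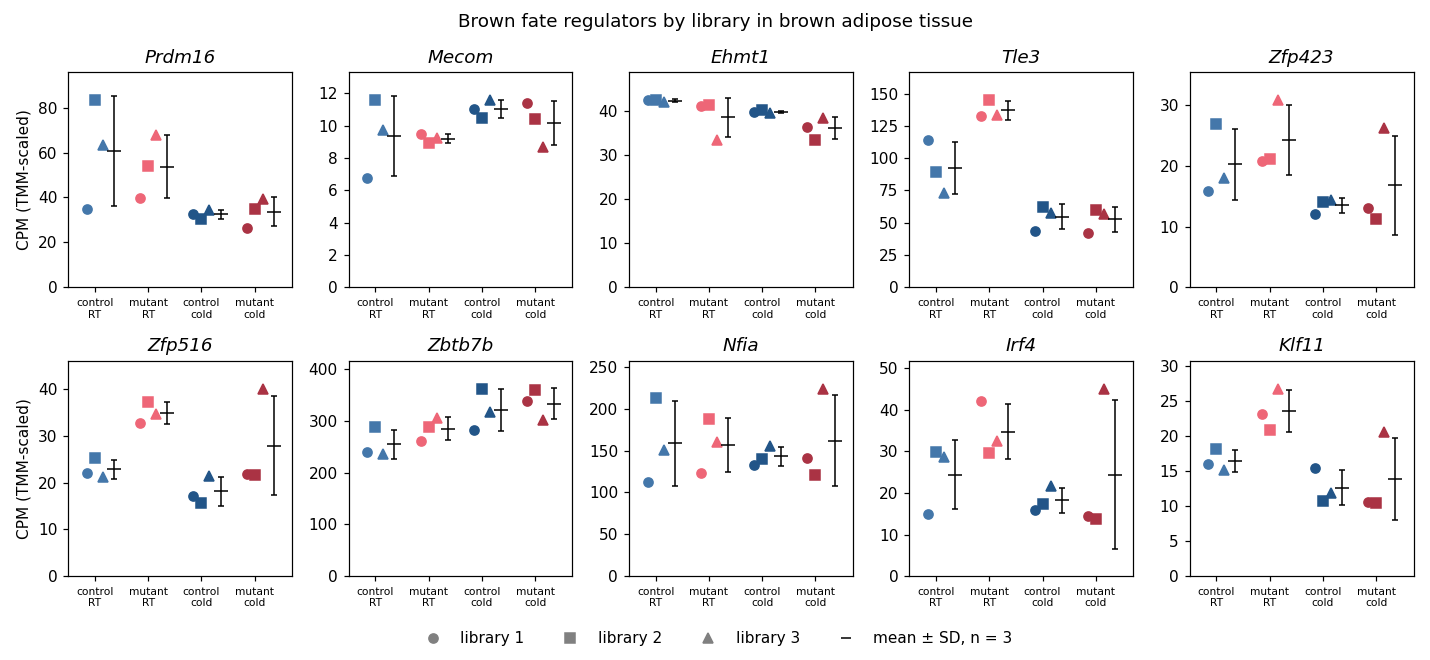
Level of each of the 10 regulators in every library (y axis, CPM on TMM-scaled library sizes, from 0) for the 4 groups on the x axis; marker shapes give the library number, and black bars the group mean ± SD (n = 3). Tle3 lies between 73.4 and 145 CPM in the 6 RT libraries and between 41.8 and 62.4 CPM in the 6 cold libraries.

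Tle3 was the 1 member called between temperatures within a genotype. It was lower after the cold week in both genotypes. In controls Tle3 was 114, 89.7 and 73.4 CPM at RT and 43.9, 62.4 and 57.5 CPM in the cold. Every cold value was below every RT value, as for 14.4% of all genes tested. The log2 fold change was -0.76 ± 0.19 (SE; edgeR adjusted p = 0.0342), a fall of 1.69-fold. In mutants Tle3 was 132, 145 and 134 CPM at RT and 41.8, 59.5 and 56.9 CPM in the cold, again without overlap, as for 16% of all genes. It fell there by 2.60-fold, a log2 fold change of -1.38 ± 0.19 (adjusted p = 0.000681). The call in mutants held under each alternative run, with adjusted p of at most 0.0098. The call in controls did not: without any 1 of the 3 cold controls, RT control 1 or 2, or RT mutant 2 the adjusted p was between 0.0546 and 0.128, and without the 4 libraries richest in muscle transcripts it was 0.251 at a log2 fold change of -0.75. Over all 15265 genes tested, 2.31% were called lower with cold in controls and 7.42% in mutants, against 1 of 10 members in each. In the mean over both genotypes Tle3 fell by 1.07 on the log2 scale (± 0.13 SE, edgeR adjusted p = 0.000231). That contrast was chosen after these values were seen, and 11% of all genes were called lower in it.

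At RT, Tle3 was higher in mutants without passing the test. Mutants stood at 137 ± 7.07 CPM (SD, n = 3) and controls at 92.3 ± 20.4 CPM, and the lowest mutant value was above the highest control value. This log2 fold change of 0.57 ± 0.19 was not called (adjusted p = 0.101). It was called without RT control 1 (0.75, adjusted p = 0.0384) and in DESeq2 (adjusted p = 0.0489), with adjusted p between 0.0384 and 0.386 over all alternatives. In the cold the genotypes overlapped, at 52.7 ± 9.56 CPM in mutants and 54.6 ± 9.62 CPM in controls (-0.05 ± 0.19, adjusted p = 0.925). The larger cold difference of mutants was tested as an interaction and was not called (-0.62 ± 0.26, unadjusted p = 0.0374, adjusted p = 0.367), where 0.478% of all genes were.

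Prdm16 was lower after the cold week in both genotypes without passing the test in either. In controls its values were 34.7, 83.4 and 63.5 CPM at RT and 32.6, 30.6 and 34.2 CPM in the cold. The RT controls spread widely (SD 24.5 CPM) and the cold controls hardly at all (SD 1.82 CPM), and the groups did not overlap. The log2 fold change was -0.90 ± 0.28 (SE, adjusted p = 0.0792). In mutants Prdm16 was 39.6, 54.0 and 67.8 CPM at RT and 26.6, 34.98 and 39.5 CPM in the cold, with the highest cold value just under the lowest RT value (-0.67 ± 0.28, adjusted p = 0.128). Averaged over both genotypes, a contrast chosen after these values were seen, Prdm16 fell by 0.79 on the log2 scale (± 0.20 SE, adjusted p = 0.014), where 24.8% of all genes were called and 11% called lower. That averaged call held under each alternative run, with adjusted p between 0.000921 and 0.0353 and log2 values between -0.94 and -0.64. In RT controls 1 to 3 the muscle fibre markers summed to 19180, 5.20 and 13780 CPM. In RT mutants 1 to 3 they summed to 845, 6.63 and 16440 CPM. The part of muscle in the Prdm16 level was not tested beyond leaving libraries out. Without RT control 1 the control difference was -1.18 and was called (adjusted p = 0.0156), and without RT control 2 it was -0.60 (adjusted p = 0.248). With the replicate number as a block it was -0.82 (adjusted p = 0.0493) and in DESeq2 -0.92 (adjusted p = 0.0207), both called.

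Between genotypes Prdm16 overlapped at both temperatures, with means of 53.8 ± 14.1 CPM in mutants and 60.5 ± 24.5 CPM in controls at RT and of 33.7 ± 6.53 and 32.5 ± 1.82 CPM in the cold (SD, n = 3). The log2 fold changes were -0.17 ± 0.28 and 0.05 ± 0.28 (adjusted p = 0.808 and 0.948). Without the 4 muscle-rich libraries, which leaves 1 RT control, the RT value was -0.83 (adjusted p = 0.231) and the difference with cold in controls -1.40 (adjusted p = 0.117).

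Neither Ehmt1 nor Mecom was called in any comparison. Ehmt1 was the steadiest member, from 33.3 to 42.4 CPM over all 12 libraries. Its values were 42.4, 42.4 and 42.0 CPM in RT controls and 41.0, 41.2 and 33.3 CPM in RT mutants. In the cold they were 39.7, 40.1 and 39.5 CPM in controls and 36.3, 33.4 and 38.4 CPM in mutants. The mutants were below the controls without overlap at both temperatures, by small log2 fold changes of -0.14 ± 0.11 and -0.14 ± 0.11 that were not called (adjusted p = 0.56 and 0.567). Groups did not overlap for 24.8% of all genes in each of these comparisons, 11.9% lower in mutants at RT and 12% in the cold. Mecom was 6.75, 11.6 and 9.75 CPM in RT controls and 9.47, 8.90 and 9.24 CPM in RT mutants. Cold controls had 11.02, 10.5 and 11.6 CPM and cold mutants 11.4, 10.4 and 8.68 CPM, overlapping with RT in both genotypes. Its log2 fold changes were 0.24 ± 0.19 with cold in controls and 0.14 ± 0.19 in mutants, opposite in sign to those of Prdm16 and not called (adjusted p = 0.489 and 0.662). The value in controls was -0.11 without the 4 muscle-rich libraries. Endothelial cells also express Mecom, and 6 endothelial markers summed to between 555 and 782 CPM in RT libraries and between 899 and 1004 CPM in cold libraries; their part in the Mecom level was not tested. Between genotypes its log2 fold changes were -0.02 ± 0.19 at RT and -0.12 ± 0.19 in the cold (adjusted p = 0.966 and 0.807).

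Zfp516, an activator of Ucp1, was higher in mutants at both temperatures without passing the test at either. At RT its values were 32.7, 37.3 and 34.6 CPM in mutants and 22.0, 25.2 and 21.3 CPM in controls, with no overlap. The log2 fold change of 0.61 ± 0.22 (SE) was not called (adjusted p = 0.132), but was with only the groups compared (0.61, adjusted p = 0.0495) and without the third mutant cold library (0.61, adjusted p = 0.0143). In the cold they were 21.9, 21.6 and 40.1 CPM in mutants and 17.2, 15.6 and 21.5 CPM in controls, again with no overlap but with 2 mutant values just above the highest control. The log2 fold change there was 0.62 ± 0.22 (adjusted p = 0.21) and 0.26 without the third mutant cold library (adjusted p = 0.509), and was called in neither fit. Averaged over both temperatures, a contrast chosen after these values were seen, Zfp516 rose by 0.62 ± 0.16 in mutants (adjusted p = 0.0323), where 8.1% of all genes were called and 5.18% called higher. This averaged call was lost without any 1 of 6 libraries (adjusted p between 0.0566 and 0.0874; RT controls 1 and 3, RT mutants 2 and 3, cold controls 1 and 2), and the value was lowest, 0.44, without the third mutant cold library, where it was called. The value was 0.62 without the 4 muscle-rich libraries, with an adjusted p of 0.303. Between temperatures Zfp516 was not called in either genotype (-0.33 ± 0.22 in controls, adjusted p = 0.389, and -0.32 ± 0.22 in mutants, adjusted p = 0.354).

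Zbtb7b, the most abundant member, had values of 241, 288 and 236 CPM in RT controls and 261, 288 and 306 CPM in RT mutants. In the cold it was 282, 362 and 317 CPM in controls and 338, 360 and 301 CPM in mutants. Its log2 fold changes with cold were 0.33 ± 0.14 in controls and 0.23 ± 0.14 in mutants, with overlapping groups and no call (adjusted p = 0.187 and 0.318). Zbtb7b and Mecom were the 2 members with positive values in both genotypes.

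Klf11, a cofactor of PPARgamma in browning, was 16.0, 18.2 and 15.1 CPM in RT controls and 23.2, 20.9 and 26.8 CPM in RT mutants, without overlap (log2 fold change 0.52 ± 0.25, adjusted p = 0.269). In the cold it was 15.4, 10.7 and 11.8 CPM in controls and 10.5, 10.5 and 20.7 CPM in mutants. The cold values of mutants were all below their RT values. That difference, -0.76 ± 0.25, missed the threshold (adjusted p = 0.0542) and was called with RLE size factors, DESeq2, no filter on low counts or the replicate block (adjusted p between 0.0196 and 0.0496). Without the 4 muscle-rich libraries it had an adjusted p of 0.263. In controls the cold difference was -0.38 ± 0.25 (adjusted p = 0.385), with RT and cold values overlapping. Averaged over genotypes Klf11 fell by 0.57 on the log2 scale (adjusted p = 0.0335), a call lost in 8 of the 12 fits that left out 1 library, with adjusted p up to 0.0667, and without the 4 muscle-rich libraries (-0.57, adjusted p = 0.218).

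Irf4, which acts with PGC-1alpha on thermogenic genes, was 14.9, 29.9 and 28.6 CPM in RT controls and 42.2, 29.5 and 32.6 CPM in RT mutants. In the cold it was 15.9, 17.3 and 21.6 CPM in controls and 14.4, 13.8 and 45.1 CPM in mutants. The groups overlapped in each comparison and none was called, with adjusted p between 0.47 and 0.678. Irf4 is also a gene of lymphocytes and macrophages. The 8 lymphocyte markers together summed to between 3.73 and 8.30 CPM over the 12 libraries, and in the third mutant cold library, where Irf4 was highest, they were at their lowest; the 5 macrophage markers measured were at 68.9 CPM there, within the range of the other 11 (54.1 to 128 CPM). The part of these cells in the Irf4 level was not tested.

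Zfp423, the preadipocyte factor, was 15.9, 26.9 and 17.97 CPM in RT controls and 20.9, 21.1 and 30.8 CPM in RT mutants. In the cold it was 12.1, 14.0 and 14.4 CPM in controls and 13.1, 11.2 and 26.2 CPM in mutants. The cold controls were all below the RT controls, by a log2 fold change of -0.59 ± 0.31 that was not called (adjusted p = 0.272). The 6 fibroblast and preadipocyte markers were also lower in cold controls: they summed to between 984 and 1593 CPM in RT controls and between 514 and 917 CPM in cold controls, and their part in the Zfp423 level was not tested. In mutants the value was -0.53 ± 0.30 (adjusted p = 0.269). Nfia, which binds brown enhancers with PPARgamma, overlapped in each comparison, at 113, 214 and 151 CPM in RT controls and 123, 188 and 160 CPM in RT mutants. In the cold it was 133, 140 and 156 CPM in controls and 142, 120 and 224 CPM in mutants. Its log2 fold changes lay between -0.15 and 0.18. Without the 4 muscle-rich libraries Nfia was at -0.45 between genotypes at RT and at -0.64 with cold in controls, where Irf4 was at -0.85 and Zfp423 at -1.04, none of them called (adjusted p between 0.291 and 0.655).

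**Figure D2:**
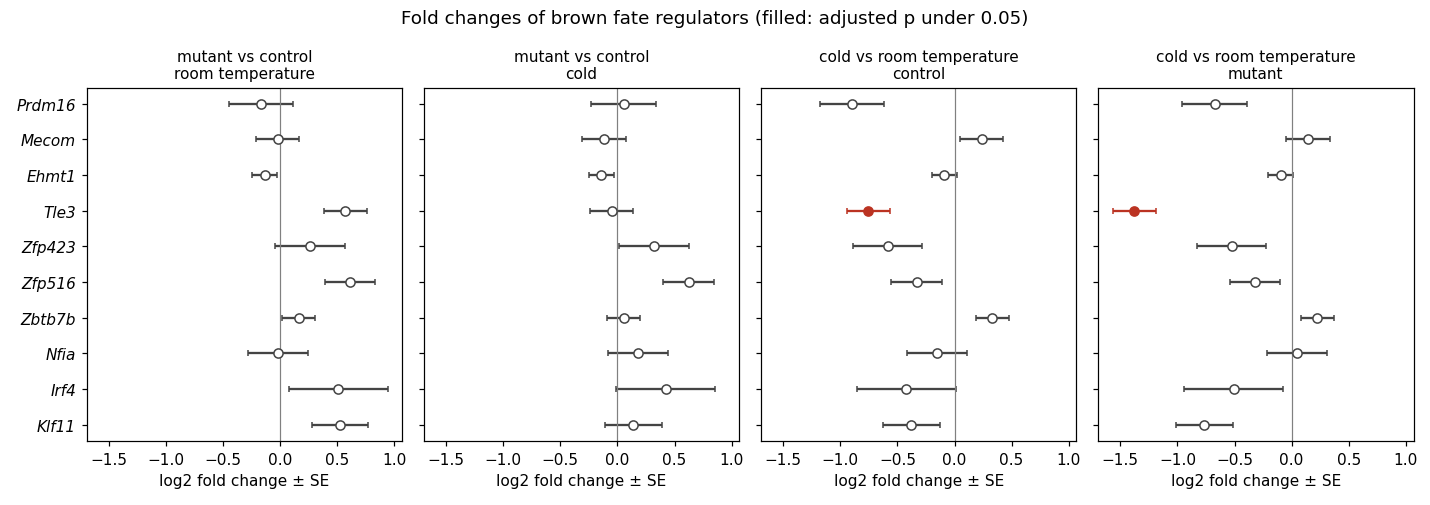
Log2 fold change ± SE (x axis) of each member (y axis) in the 4 comparisons of 2 groups, from the edgeR fit of all 12 libraries; filled red points have an adjusted p under 0.05. Tle3 is filled in the 2 comparisons of cold with RT, at -0.76 and -1.38, and no point is filled between genotypes.

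The levels of 5 members stood apart in the third mutant cold library. There Irf4 was 3.20 times the mean of the other 2 libraries of the group, Zfp423 2.15 times, Klf11 1.96 times, Zfp516 1.84 times and Nfia 1.71 times. Irf4, Zfp516 and Nfia reached their highest level of all 12 libraries in it. Tle3 (1.12 times), Ehmt1 (1.10 times), Zbtb7b (0.86 times) and Mecom (0.80 times) were close to the rest of the group, and Prdm16 was 1.28 times. Of all genes tested, 15.3% were more than 1.5 times the mean of the other 2 libraries in this library, the highest share of the 12, against 5 of the 10 members. The same library held 1730 CPM of the 6 fibroblast and preadipocyte markers, against 535 and 413 CPM in the other mutant cold libraries. The 6 adipocyte markers summed to 14980 CPM, against 20540 and 21340 CPM. That lower sum rested on Fabp4, which ran from 5751 to 11980 CPM over the mutant cold libraries (median 11770). The other adipocyte markers varied less there: Adipoq from 695 to 887 CPM, Plin1 from 1437 to 1522, Lipe from 1548 to 1760, Cidec from 1596 to 1654 and Pnpla2 from 3386 to 3742. The part of these cell types in the members' levels was not tested.

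**Figure D3:**
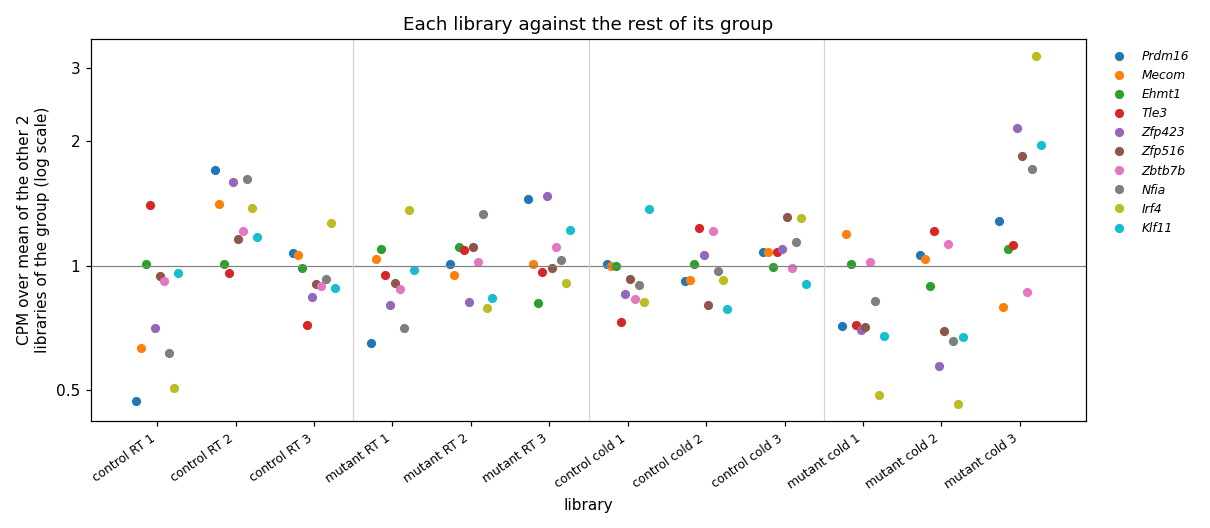
Ratio of each member's CPM in a library (x axis) to its mean in the other 2 libraries of the group (y axis, log scale), with 1 colour per gene; the line at 1 marks no difference. In mutant cold library 3 the ratios run from 0.80 for Mecom to 3.20 for Irf4, and 5 members exceed 1.5.

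Without that library, 5 of 10 members instead of 1 were called lower with cold in mutants, where 10.4% of all genes then were, against 7.42% with it. Irf4, Zfp423, Klf11 and Zfp516 were highest of their group in that library, so leaving it out must lower their cold values. The count of 5 is thus partly fixed by the choice of library and is no support for a fall of the members. Klf11 then had a log2 fold change of -1.17 (adjusted p = 0.00104), Irf4 of -1.31 (adjusted p = 0.00669), Zfp423 of -0.997 (adjusted p = 0.0126), Zfp516 of -0.68 (adjusted p = 0.00758) and Tle3 of -1.44 (adjusted p = 0.000856), with 2 mutant cold libraries left. Prdm16 was at -0.81 and not called (adjusted p = 0.107). Between genotypes at RT, Zfp516 was called without it, where 9.75% of all genes then were. In the cold no member was called with or without it, and Prdm16, Nfia, Irf4, Zfp423 and Klf11 changed from higher to lower in mutants, at -0.08, -0.13, -0.37, -0.15 and -0.27 (adjusted p between 0.59 and 0.952).

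Between genotypes, edgeR called 0 of the 10 members at RT, where 6.24% of all genes were called, and 0 of 10 in the cold, where 1.12% were. At an unadjusted edgeR p under 0.05, 2 members passed at RT, Zfp516 and Tle3, and 1 in the cold, Zfp516. DESeq2 called 1 member at RT (Tle3) and 0 in the cold. Mutants lay above controls without overlap for 3 members at RT (Zfp516, Tle3 and Klf11) and for 1 in the cold (Zfp516), each time beside 12.9% of all genes, and below them for 1 at each temperature (Ehmt1). The median log2 fold change of the members was 0.21 at RT and 0.10 in the cold, beside -0.04 and -0.01 over all genes tested. Between temperatures 8 of 10 members had negative values in controls and 7 of 10 in mutants, with medians of -0.36 and -0.42 beside -0.01 and -0.01 over all genes, and 6.62% and 17.4% of all genes were called in either direction. Cold values lay below all RT values for 4 members in controls (Prdm16, Ehmt1, Tle3 and Zfp423), beside 14.4% of all genes. In mutants they did so for 3 members (Prdm16, Tle3 and Klf11), beside 16%. The comparisons within one genotype or one temperature share libraries with each other, and their values are given side by side only.

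The counts of the following lists from all 12 libraries stand beside 6.24% of all genes called between genotypes at RT and 1.12% in the cold. With cold, 6.62% were called in controls and 17.4% in mutants. Without the third mutant cold library these shares of all genes were 9.75%, 0.626%, 11.6% and 23.4%, in the same order. Without the 4 muscle-rich libraries, which leaves 1 RT control, fewer of all genes were called in each comparison too. Of 13 genes tested for proteins that PRDM16 and TLE3 work with, 1 was called higher in mutants at RT, Cebpa, which encodes C/EBPalpha, a binding partner of PPARgamma at adipocyte genes (1762 ± 267 CPM against 748 ± 200 CPM, log2 fold change 1.24 ± 0.22 SE, adjusted p = 0.00673). The list's median was -0.02 beside -0.04 over all genes. In the cold 0 of 13 were called between genotypes, as with cold in controls. In mutants Cebpa fell with cold by 0.91 on the log2 scale (± 0.22 SE, adjusted p = 0.0145) and Ppargc1b, the coactivator PGC-1beta, rose by 0.97 ± 0.22 (adjusted p = 0.0102), the other 11 not being called. Without the third mutant cold library 4 of 13 were called with cold in mutants and 1 in controls, and without the 4 muscle-rich libraries 1 (Ppargc1b) and 0, with 0 called between genotypes at RT.

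Of 27 paralogs of the members tested, 1 was higher and 1 lower in mutants at RT. Tle4, a Groucho relative of Tle3, stood at 7.89 ± 1.75 CPM in mutants and 13.3 ± 1.19 CPM in controls (-0.75 ± 0.19, adjusted p = 0.0348), opposite in sign to Tle3. Tle1 had the sign of Tle3 there and no overlap, and was not called (0.49 ± 0.16, adjusted p = 0.0957). Tle2 and Tle6 were at -0.46 ± 0.37 and -0.26 ± 0.45, also not called. Irf7, an interferon-induced relative of Irf4, was higher in mutants at RT (0.82 ± 0.20, adjusted p = 0.0341), lower in mutants in the cold (-1.12 ± 0.21, adjusted p = 0.0275) and the 1 paralog with a called interaction (-1.95 ± 0.29, adjusted p = 0.0171). With cold, 1 of 27 fell and 1 rose in controls, Klf9 (-0.89 ± 0.20, adjusted p = 0.0254) and Irf7 (0.87 ± 0.21, adjusted p = 0.0284). In mutants 2 of 27 fell, Irf7 (-1.08 ± 0.21) and Tle1 (-0.65 ± 0.16, adjusted p = 0.0157), another Groucho gene. Without the third mutant cold library 6 of 28 were called with cold in mutants and none between genotypes in the cold, and without the 4 muscle-rich libraries the only paralog call was Irf7 with cold in mutants.

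Of 12 brown-selective genes linked to PRDM16, 3 were called lower in mutants at RT and 1 higher (median -0.60). Letmd1, a mitochondrial protein gene of brown fat, was lower by a log2 fold change of -1.14 ± 0.23, and Ucp1 by -1.77 ± 0.39, while Elovl3, a fatty acid elongase, was higher (1.61 ± 0.27). In the cold 0 of 12 were called between genotypes. With cold 3 of 12 rose in controls, among them Elovl3 (4.8 ± 0.30) and Ucp1 (1.42 ± 0.39, adjusted p = 0.0492), and 6 of 12 in mutants, among them Elovl3 (4.09 ± 0.29) and Ucp1 (2.86 ± 0.41). Without the third mutant cold library 5 of 12 were lower in mutants at RT, and 5 rose with cold in controls and 8 in mutants. Without the 4 muscle-rich libraries 0 were called between genotypes at RT, 1 rose in controls (Elovl3) and 5 in mutants. The 6 adipocyte markers together were also higher in RT mutants, at 19390 to 25190 CPM against 12780 to 17420 CPM in RT controls, and 3 of them were called, among them Plin1, which coats lipid droplets (0.93 ± 0.15, adjusted p = 0.00392), and the lipase gene Lipe (0.91 ± 0.15, adjusted p = 0.00514). Their part in the RT levels of Tle3, Zfp516, Klf11 and the white-selective genes was not tested. Of 8 white-selective genes tested, 3 were higher in mutants at RT (median 1.51), the resistin gene Retn standing at 699 ± 33.5 CPM against 106 ± 43.8 CPM and the amino acid transporter gene Slc7a10 at 160 ± 34.9 CPM against 37.4 ± 21.0 CPM. In the cold 0 of 8 were called between genotypes. With cold, 1 of 8 rose in controls, Igfbp3 (1.12 ± 0.23, adjusted p = 0.0154), while in mutants Igfbp3 rose (1.22 ± 0.23) and Retn fell by 1.76 (± 0.40 SE, adjusted p = 0.0117). Without the 4 muscle-rich libraries none of the 8 was called in any comparison.

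By the root mean square difference of log2 CPM centred on each gene's mean over the 12 libraries, among 12342 named genes with a mean of at least 1 CPM, Tle3 was closest to Angptl2, a secreted angiopoietin-like factor (0.14), Ahcyl2 (0.18) and Naaa (0.20), where its own root mean square deviation was 0.61. Prdm16 was closest to Rbm26 (0.15), Usp37 (0.19) and Zfp780b (0.19), with an own deviation of 0.50. Among the members the nearest pairs were Mecom with Zbtb7b (0.20), which both varied little, and Zfp423 with Klf11 (0.24).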

How the data were processed

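RNA-seq of 12 BAT libraries was deposited by the authors as 1 table of whole-number counts per gene; per the submitters' processing notes, reads were aligned with STAR to mm9 and counted with featureCounts. The sources used here give no tool versions, annotation, strand setting or handling of reads with several alignments. Each column matched 1 sample's labels, and 0 columns were left unmapped. Counts were fitted over all 12 libraries with 1 coefficient per group in edgeR 4.0.16 (TMM, filterByExpr with a minimum count of 10 and total of 15, robust quasi-likelihood test; limma 3.58.1, R 4.3.3), which kept 15265 of 24197 genes, and p-values were adjusted by Benjamini-Hochberg over all of them. A gene was called at an adjusted p under 0.05. The code was tested on simulated data. Alternatives were RLE size factors, DESeq2 1.42.0, no filter, the replicate number as a block, only the groups compared, each library left out, and 4 muscle-rich libraries left out together, which leaves 1 control and 2 mutant libraries at RT, the lone one being assumed to vary like the other groups. The 4 were RT controls 1 and 3, RT mutant 3 and cold control 3, with 7192 to 19180 CPM of muscle fibre markers. The third mutant cold library, with 4530 CPM, was kept in those fits. Two-sided tests were used throughout.

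The members and gene lists were chosen with earlier results of these data known. Named are all 10 members, Ebf2, Ucp1, up to 2 called genes per direction of each list and comparison with the largest fold change, and the 3 genes nearest in pattern to Prdm16 and to each member called. Beyond these, the adipocyte markers and the Groucho relatives of Tle3 in the paralog list are named. The result of 1 gene list is not reported here. Group levels are mean ± SD, and fold changes are given ± SE. No 2 libraries of a group were identical or agreed within counting noise. The totals put a count of 3 between 0.0764 and 0.114 CPM, far below each member; how much of the spread between libraries is counting error was not separated. Merged exon lengths came from GENCODE M21, matched by symbol, and promoters from RefSeq on GRCm38.p6, another build than that of the counts.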

Additional observations from a re-analysis of the deposited data

How the results depend on the processing

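Over 6 alternative settings, 228 of the 240 fold changes of the members between 2 groups kept their direction and their side of the threshold, 3 were reversed, 1 lost its call and 8 gained one. With each of the 12 libraries left out, 447 of 480 did so, 19 were reversed, 6 lost a call and 8 gained one. The cause was not tested. In the main fit only Tle3 with cold was called, so only its values could lose a call, and most values that kept their side were uncalled. All 6 calls lost without 1 library were that of Tle3 in controls, out of its 12 fits. Without 1 library, values reached both signs between genotypes at RT for Prdm16 (-0.45 to 0.13), Mecom (-0.21 to 0.16) and Nfia (-0.21 to 0.25), between genotypes in the cold for Prdm16 (-0.075 to 0.20), Irf4 (-0.37 to 0.70), Klf11 (-0.27 to 0.30), Nfia (-0.13 to 0.35), Tle3 (-0.19 to 0.094), Zbtb7b (-0.030 to 0.18) and Zfp423 (-0.15 to 0.53), and with cold for Nfia in controls (-0.35 to 0.12) and mutants (-0.26 to 0.20). Without the 4 muscle-rich libraries, Mecom in controls with cold was -0.11, and at RT between genotypes Zbtb7b was -0.063 and Zfp423 -0.36. Members called between genotypes at RT numbered 1 with DESeq2 and 1 with only the groups compared (0 to 1 without 1 library); with cold in controls 2 with DESeq2, 2 with the replicate block and 0 without the muscle-rich libraries (0 to 1); with cold in mutants 2 with DESeq2, RLE factors, no filter or the replicate block (1 to 5); in the mean over genotypes 5 with DESeq2 (2 to 7), and in the genotype mean over temperatures 0 without the muscle-rich libraries (0 to 1). All genes called between genotypes at RT numbered 1697 with DESeq2, 552 with only the groups compared and 129 without the muscle-rich libraries (395 to 1512 without 1 library); in the cold 755, 102 and 18 (28 to 203); with cold in mutants 1633 with only the groups compared and 1218 without the muscle-rich libraries (1466 to 3630); in controls 2005 with DESeq2 and 13 without the muscle-rich libraries (313 to 1795); for the interaction 445 with DESeq2, 34 with the replicate block and 26 without the muscle-rich libraries (13 to 204); in the temperature mean 1146 without the muscle-rich libraries, and in the genotype mean 2084 with DESeq2 and 247 without them (650 to 1286). Same-numbered libraries deviated together (correlation over 0.1) in every pair of some group pairs and not of others, differently on 2 log scales, so the numbers were not taken as pairs. Libraries numbered 3 correlated at 0.456 to 0.62 in every comparison of 2 groups. Those numbered 2 correlated at 0.151 to 0.781, and those numbered 1 at -0.0306 to 0.264. The labels do not say what the numbers mark. A shared batch was not tested beyond the block fit, which called Prdm16 with cold in controls and Klf11 with cold in mutants. The 2 contrasts of means were chosen after seeing the data. In the mean over genotypes, 7 members were called only without the third mutant cold library, whose omission must lower the cold values of members highest in it. All genes called in this contrast numbered 3792 with all 12 libraries, 2811 to 4995 without 1 library and at most 4629 under the other settings.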
